A study of Mus musculus with 44 samples.

Results

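Kitl, Jag1, Igf1, Spp1 and Ptgs2 encode factors by which cells of bone and bone marrow act on haematopoietic stem cells, and their levels were read cell by cell in 44 single cells. They are 5 of the 3613 genes in the deposited table and were taken from it by name. Of these cells, 20 were labelled as cultured with megakaryocytes (co-culture cells below, with MK in the figures), all from plate 7. They were set against 24 cells labelled as cultured without them (no-MK cells below, without MK in the figures), all from plate 3. Every cell came from C57BL/6J neonatal calvarial cells, the cells released from newborn skull bone, kept for 16 h, with 50000 megakaryocytes added in the first group, and was sorted as an osteomac, a macrophage of bone surfaces, by the surface proteins CD45 and F4/80 and the absence of CD41. No label gives the number of animals. The titles of the no-MK cells also name megakaryocytes, against their treatment field. No label names a culture, so each group counts as 1 sample, plate and treatment cannot be told apart, and no test between the groups was made.

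Haematopoietic stem cells are kept in the marrow by signals from neighbouring stromal, endothelial and haematopoietic cells. Kitl encodes stem cell factor, the ligand of the receptor KIT, and Jag1 encodes a membrane-bound ligand of Notch receptors. Igf1 encodes a secreted growth factor. Spp1 encodes osteopontin, a secreted matrix protein made by osteoblasts and by macrophages that binds integrins and CD44. Ptgs2 encodes the inducible cyclooxygenase, which makes the precursor of prostaglandin E2, a lipid that acts on stem cells and on the cells around them.

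In GENCODE M21 on GRCm38, the assembly that mm10 names, all are protein-coding. Kitl lies on chromosome 10 at 100015630 to 100100416 and Igf1 on the same chromosome at 87858265 to 87937042, both on the plus strand. Jag1 lies on chromosome 2 at 137081456 to 137116644 on the minus strand, Spp1 on chromosome 5 at 104435118 to 104441050 and Ptgs2 on chromosome 1 at 150100031 to 150108227, both on the plus strand. Exons of Spp1 overlap those of the predicted gene Gm42793 on the same strand, so reads of these 2 genes may not have been told apart.

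The promoters of Spp1 and Ptgs2 are shown because both hold the motif of Runx factors, which act in bone cells, while the share of expressing cells was higher in co-culture cells for Spp1 and lower for Ptgs2. They are the 250 bases before the start site in RefSeq on GRCm38.p6, plus strand, at chr5:104434861-104435110 and chr1:150099781-150100030. Where RefSeq lists several start sites, the first listed was taken. Capitals mark matches to TATAAA (the TATA box), TGTGGT (Runx), TGANTCA (AP-1), GTGGGAA (Rbpj, the Notch effector) or CACGTG (an E-box), searched on both strands.
Spp1: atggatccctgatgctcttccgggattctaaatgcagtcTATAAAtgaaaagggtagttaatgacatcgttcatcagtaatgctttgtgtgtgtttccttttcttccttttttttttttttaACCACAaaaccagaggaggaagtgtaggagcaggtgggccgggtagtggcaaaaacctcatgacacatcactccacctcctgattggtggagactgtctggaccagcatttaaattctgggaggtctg
Ptgs2: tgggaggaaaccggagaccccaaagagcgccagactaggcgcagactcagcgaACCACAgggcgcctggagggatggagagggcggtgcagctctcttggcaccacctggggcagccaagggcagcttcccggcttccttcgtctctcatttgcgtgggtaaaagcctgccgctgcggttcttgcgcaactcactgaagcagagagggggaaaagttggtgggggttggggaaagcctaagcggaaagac
The Runx letters stand in both as ACCACA, their form on the other strand, and Spp1 also holds the TATA box letters, far upstream of its start site. All 5 genes had an entry in RefSeq, and the TATA box letters were found for 2 of them, Kitl and Spp1, and in 12.4% of 32817 promoters. The Runx letters were found for Spp1 and Ptgs2 and in 14.0% of promoters. The AP-1 letters were found for Igf1 and in 6.75% of promoters. The Rbpj and E-box letters, present in 5.42% and 6.02% of promoters, were in none of these 5 windows. These are letter matches and say nothing of binding.

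The cells of the 2 plates differed in kind, and every difference below sets one kind against the other. Of 20 macrophage markers, 19 were analysed, and their summed level ran from 4121 to 64610 CPM (reads × 1000000 over the library reads of the cell) in co-culture cells, with a median of 28057. In no-MK cells it ran from 0 to 176 CPM, with a median of 12.3. Of 23 osteoblast and fibroblast markers, 10 were analysed, and their sum ran from 3.88 to 196 CPM in co-culture cells, with a median of 11.3, and from 5208 to 102368 in no-MK cells, with a median of 14871. Ptprc, the gene of CD45, had a read in 20 of 20 co-culture cells and in 1 of 24 no-MK cells, so reads of their own sort marker were at or near 0 in the no-MK cells. How far this difference in kind sets the differences below was not tested. Of 12 megakaryocyte and platelet, 10 endothelial and 9 osteoclast markers, 0 were in the table. Transcripts of these cells could thus not be judged by these lists. Each group also held reads of the other group's markers. The matrix gene Sparc had 1 to 7 reads in every co-culture cell, and the lysozyme gene Lyz2 up to 6 reads in no-MK cells. A cell is counted as expressing a gene from 10 CPM, a limit that leaves out some such reads but not all. In co-culture cells 5 of the 10 stromal markers reached it, in the 2 cells of lowest depth only. In no-MK cells 5 of the 19 macrophage markers reached it, in 9 of the 24 cells. Cd68, which encodes a lysosomal protein, did so in 6 no-MK cells, with up to 84 reads in a cell, and Cd14, a receptor for bacterial lipopolysaccharide, in 3, with up to 41 reads. Library reads per cell ran from 69181 to 1212604 in co-culture cells and from 270537 to 714465 in no-MK cells. Co-culture cells 11 and 16 had 69181 and 71585 library reads, so that 1 read in them already exceeds 10 CPM.

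**Figure D1:**
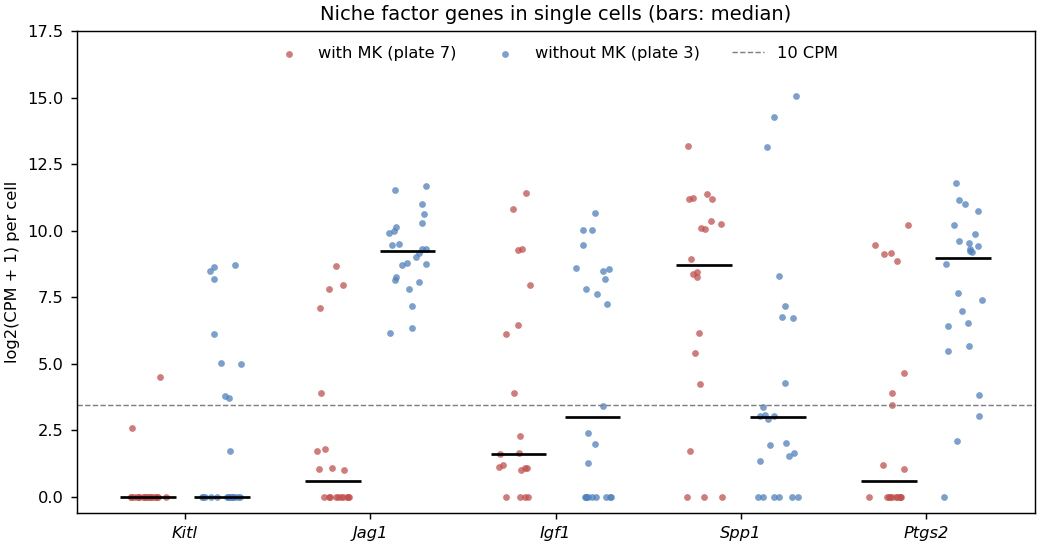
Level of each gene in every cell as log2(CPM + 1), co-culture cells left and no-MK cells right for each gene, bars at the median and the dashed line at 10 CPM. Jag1 was above the line in 24 of 24 no-MK cells, Spp1 in 16 of 20 co-culture cells, and the groups overlapped for every gene.

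Kitl was expressed by 1 co-culture cell and by a minority of no-MK cells. It reached 10 CPM in 1 of 20 co-culture cells (5.00%, 95% interval 0.127 to 24.9%) and in 9 of 24 no-MK cells (37.5%, 18.8 to 59.4%). In co-culture cells the lowest value and the median were 0, and the highest was 21.7 CPM, from 22 reads in cell 3. The only other co-culture cell with a read was cell 10, with 4. In no-MK cells the lowest value and the median were 0 too, and the highest was 416 CPM. Cells 21, 17, 15 and 4, at 416, 395, 359 and 287 CPM, were the 4 above 100 CPM, and each of the other expressing cells was lower. The summed level was 1.66 CPM in co-culture cells (26 reads, Poisson 95% interval 17.0 to 38.1) and 72.9 CPM in no-MK cells (905 reads, 847 to 966), 43.8-fold lower in co-culture cells (29.7 to 67.5). Intervals cover counting error only, and the reads carry no molecular identifiers. Cell 3 held 84.6% of the co-culture reads, and without the highest cell of each group the levels were 0.274 CPM in co-culture cells and 52.5 CPM in no-MK cells.

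Jag1 was the one member that every no-MK cell expressed. It reached 10 CPM in 5 of 20 co-culture cells (8.66 to 49.1%) and in 24 of 24 no-MK cells (from 85.8% up). Co-culture cells ran from 0 to 408 CPM with a median of 0.522. No-MK cells ran from 69.8 CPM in cell 13 to 3320 CPM in cell 5, with a median of 607. The co-culture cells split into 4 with a clear level and 16 with 2 reads or fewer. The 4 were cells 13, 19, 14 and 17, at 408, 250.1, 226 and 137.8 CPM, all within the range of the no-MK cells. The fifth counted cell was the shallow cell 16, with 1 read, and without the 2 shallow cells the count was 4 of 18. The 4 Jag1 cells had 7.25 to 8.75 CPM of stromal markers, below the group's median of 11.3, and 9389 to 34760 CPM of macrophage markers. The summed level was 58.5 CPM in co-culture cells (915 reads, 857 to 976) and 897 CPM in no-MK cells (11132 reads, 10926 to 11341), 15.3-fold lower in co-culture cells (14.3 to 16.4).

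Igf1 was high in some cells and at or near 0 in the others in both groups. It reached 10 CPM in 8 of 20 co-culture cells (19.1 to 63.9%) and in 11 of 24 no-MK cells (45.8%, 25.6 to 67.2%). Co-culture cells ran from 0 to 2708 CPM with a median of 2.10, and no-MK cells from 0 to 1617 CPM with a median of 7.06. The ranges overlapped almost throughout. In no-MK cells the 11 expressing cells held 150.2 CPM or more and the other 13 held 9.79 CPM or less, with no cell between. In co-culture cells 5 cells stood above 100 CPM, cells 3, 4, 5, 13 and 15, at 2708, 1811, 644, 613 and 252 CPM. Cell 10 had 69.6 CPM, and the shallow cells 11 and 16 counted with 6 reads and 1 read. Without these 2 the share was 6 of 18. Over the 20 co-culture cells Igf1 went with the stromal marker sum, with a Spearman correlation of 0.60, and that sum had a median of 16.6 CPM in the 8 expressing cells and 8.55 CPM in the other 12. The highest 2 sums, up to 196 CPM, belong to the shallow cells 11 and 16, and without these the correlation over 18 cells was 0.60 with no sum above 25.5 CPM. Over the 24 no-MK cells the correlation was −0.10. The part of stromal transcripts in the Igf1 level was not tested. Among expressing cells the median was 433 CPM in co-culture cells and 377 CPM in no-MK cells. The summed level was 371 CPM in co-culture cells (5806 reads, 5658 to 5957) and 274 CPM in no-MK cells (3404 reads, 3291 to 3520), 1.35-fold higher in co-culture cells (1.30 to 1.41). Co-culture cell 3 held 47.4% of its group's reads and no-MK cell 21 held 21.6%. Without these 2 cells the levels were 209 CPM in co-culture cells and 228 CPM in no-MK cells, the opposite direction.

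Spp1 was spread over most co-culture cells and concentrated in 3 no-MK cells. It reached 10 CPM in 16 of 20 co-culture cells (80.0%, 56.3 to 94.3%) and in 8 of 24 no-MK cells (33.3%, 15.6 to 55.3%). Co-culture cells ran from 0 to 9304 CPM with a median of 422, and 13 of them were above 100 CPM. No-MK cells ran from 0 to 33893 CPM with a median of 6.93. The highest co-culture cell, cell 2, was below 2 of the no-MK cells. No-MK cells 13, 17 and 19 had 33893, 19682 and 9002 CPM and together held 98.9% of that group's reads. The other 5 expressing no-MK cells lay between 18.5 and 316 CPM. Among expressing cells the median was 1083 CPM in co-culture cells and 229 CPM in no-MK cells. The summed level was 1456 CPM in co-culture cells (22764 reads, 22469 to 23062) and 2902 CPM in no-MK cells (36029 reads, 35658 to 36403), a ratio of 0.502 (0.493 to 0.510). Without the highest cell of each group the levels were 944 CPM in co-culture cells and 1285 CPM in no-MK cells, the same direction. Without the 3 highest cells of each group, a choice made after seeing the data, the levels were 687 CPM in co-culture cells and 36.9 CPM in no-MK cells. The direction of the summed level thus turned round without the 3 no-MK cells that held 98.9% of that group's reads.

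The 3 no-MK cells with the most Spp1 differed in their stromal markers, and over all 24 cells Spp1 and the stromal marker sum had a Spearman correlation of 0.01. Of the 10 stromal markers, 9 were above the group median in cell 13, 4 in cell 17 and 2 in cell 19. Cell 13 had the group's highest Col1a2, a chain of type I collagen, at 44844 CPM against a group median of 1138, and the highest Sparc, at 42797 against 4419. Cell 17 was the next highest for Col1a2, at 12266 CPM, and ranked 3 of 24 for Sparc, at 9096. The same cell was low for the matrix genes Postn, at 20.0 CPM against a median of 485, and Bgn, at 911 against 1538, and had no read of Mgp. Cell 19 was near the median for Col1a2 and Sparc, at 1139 and 4504 CPM, and had no read of Col3a1 or Postn. Macrophage markers summed to 11.4, 24.4 and 96.0 CPM in the same cells, far below any co-culture cell.

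**Figure D2:**
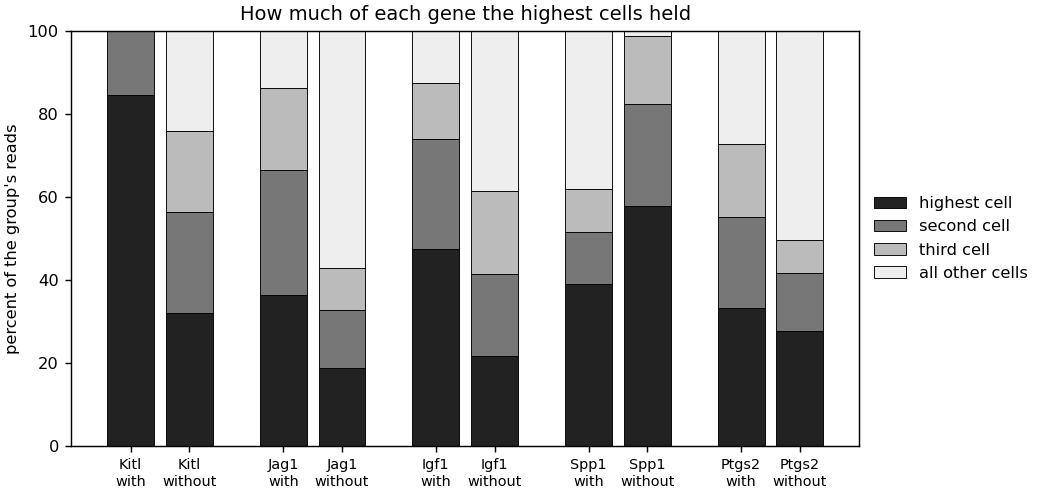
Percent of each gene's reads in its group that the highest, the second, the third and all other cells held, co-culture bars left and no-MK bars right. The highest cell held 84.6% of Kitl in co-culture cells and 57.9% of Spp1 in no-MK cells.

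Ptgs2 was expressed by a minority of co-culture cells and by most no-MK cells. It reached 10 CPM in 7 of 20 co-culture cells (15.4 to 59.2%) and in 21 of 24 no-MK cells (87.5%, 67.6 to 97.3%). Co-culture cells ran from 0 to 1192 CPM with a median of 0.529, and no-MK cells from 0 to 3534 CPM with a median of 509.6. The 5 high co-culture cells were cells 10, 6, 19, 1 and 18, at 1192, 708, 567, 561 and 469.7 CPM, well inside the no-MK range. Cells 17 and 9 had 24.5 and 14.0 CPM and all others were below 10. Among expressing cells the median was 561 CPM in co-culture cells and 598 CPM in no-MK cells, beside the lower share of expressing cells. The summed level was 182 CPM in co-culture cells (2843 reads, 2739 to 2949) and 733 CPM in no-MK cells (9103 reads, 8917 to 9292), 4.03-fold lower in co-culture cells (3.87 to 4.21). The highest cell held 33.1% of the reads in co-culture cells and 27.7% in no-MK cells.

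Set beside all 3271 genes with a read in at least 10 cells, the members were lower in co-culture cells more often than higher. At 2-fold in the summed level, 3 of 5 were lower (Kitl, Jag1 and Ptgs2), against 28.3% of all genes, and 0 of 5 were higher, against 24.4%. At 4-fold the same 3 were lower, against 13.4% of all genes, but Ptgs2 lay at the limit, at a log2 ratio of −2.01. Ptgs2 was under 4-fold by median-ratio scaling, by thinning, with equal weights and without the shallow cells. The mean of the deposited signal is the same calculation as equal weights. Spp1 missed 2-fold narrowly, at −0.995. With equal weights or the listed genes as total it was lower by over 2-fold, which makes 4 of 5. The share of all genes lower by 2-fold was not counted under these 2 settings. Without the highest cell of each group Spp1 was still lower, at −0.45. Without the 3 highest, chosen after seeing the data, it was higher, at 4.22. The median log2 ratio over all genes was −0.14. The CPM ranges of the groups overlapped for all 5 members, and 0.703% of all genes had ranges apart. The sign of the summed ratio and of the difference in mean log2(CPM + 1) disagreed for Igf1 and Spp1, 2 of 5 members, against 19.7% of all genes. For Spp1 that difference was 3.38, from a mean of 7.53 ± 4.24 (SD over 20 cells) in co-culture cells and 4.15 ± 4.57 (SD over 24 cells) in no-MK cells. For Igf1 it was −0.59, from 3.82 ± 4.00 in co-culture cells and 4.41 ± 4.27 in no-MK cells.

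**Figure D3:**
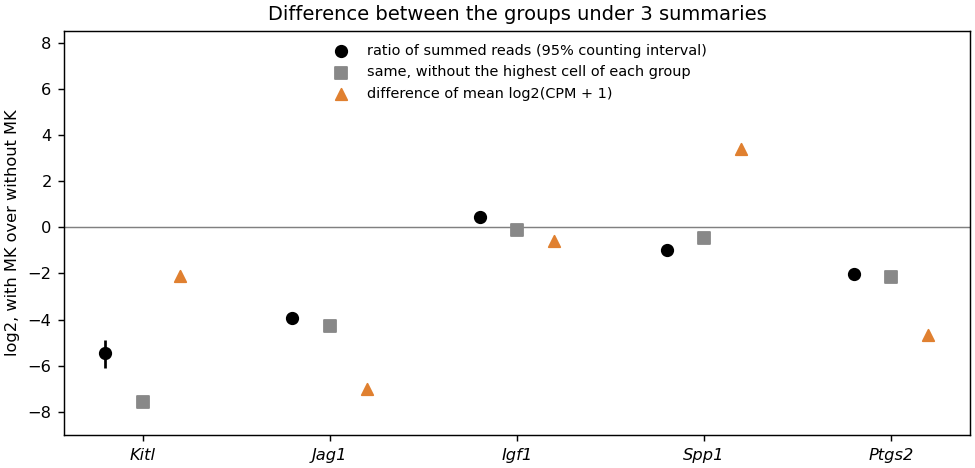
Difference between the groups as log2 of co-culture over no-MK, by summed reads with a 95% counting interval, by summed reads without the highest cell of each group, and by mean log2(CPM + 1). Kitl, Jag1 and Ptgs2 stayed below 0 under all 3, while Igf1 and Spp1 lay on both sides of 0.

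The reads of Kitl lay mostly in 1 cell in co-culture cells only, and those of Spp1 in no-MK cells only. The Kitl share rests on 26 reads in 2 co-culture cells. In co-culture cells the highest cell held at least 50% of the reads for 1 of 5 members, Kitl, against 26.1% of 3183 genes, whose median share was 33.5%. In no-MK cells it did so for 1 of 5, Spp1, against 8.17% of 3135 genes, whose median share was 19.1%. At least 50% of the co-culture cells expressed 1 of 5 members, Spp1, against 48.0% of all genes. At least 50% of the no-MK cells expressed 2 of 5, Jag1 and Ptgs2, against 65.6% of all genes.

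**Figure D4:**
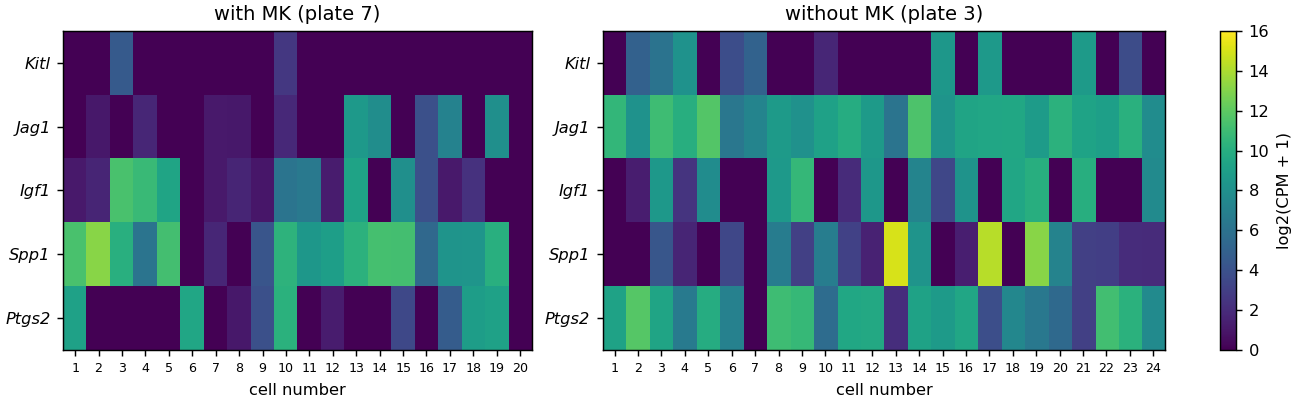
Level of each gene as log2(CPM + 1) in each co-culture cell (left, 20 cells) and each no-MK cell (right, 24 cells), by cell number. Co-culture cells 7, 8 and 20 are dark for all 5 genes, and no-MK cells 13, 17 and 19 stand out for Spp1.

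More of the factors were expressed at once in no-MK cells, and so were more of the 3271 genes of the table that passed the filter. A median of 47.9% of these 3271 genes reached 10 CPM in a co-culture cell and 64.9% in a no-MK cell. All genes of the table together held a median of 76.4% of the library reads in co-culture cells and 64.4% in no-MK cells. At least 3 of the 5 were expressed by 6 of 20 co-culture cells (11.9 to 54.3%) and by 19 of 24 no-MK cells (79.2%, 57.8 to 92.9%). Without the 2 shallow cells the first count was 5 of 18. With 1 read as the limit, the counts were 15 of 20 co-culture cells and 22 of 24 no-MK cells. No co-culture cell expressed more than 3, while 4 no-MK cells expressed 4 and 1, cell 3, expressed all 5. That contrast depends on the limit. Co-culture cell 10 had reads of all 5, with Kitl at 5.06 CPM and Jag1 at 2.53 CPM below the limit. The lowest of the 5 in no-MK cell 3 was Spp1, at 18.5 CPM. At the other end, co-culture cells 7, 8 and 20 expressed none, although they had 801573 to 945927 library reads and 27276 to 36162 CPM of macrophage markers. Every no-MK cell expressed at least 2. The number of factors had almost no relation to library reads over cells, with a Spearman correlation of 0.01 over 20 co-culture cells and 0.08 over 24 no-MK cells.

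**Figure D5:**
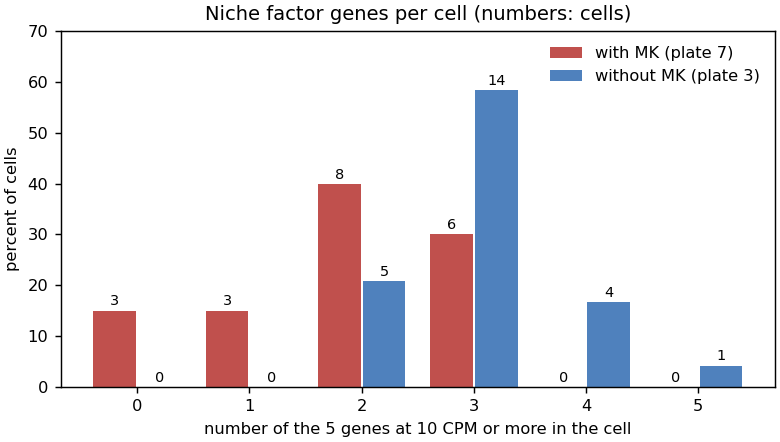
Percent of co-culture and no-MK cells by how many of the 5 genes they expressed at 10 CPM or more, with the number of cells above each bar. The co-culture cells peak at 2 genes (8 cells) and the no-MK cells at 3 genes (14 cells).

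The combinations of genes also differed. In co-culture cells the most frequent was Igf1 with Spp1 alone, in 4 cells, followed by Spp1 with Ptgs2, in 3. All 8 Igf1 cells and all 5 Jag1 cells also expressed Spp1, which 16 of the 20 cells did. Igf1 and Ptgs2 were expressed together in 1 co-culture cell, cell 10, while 7 cells had Igf1 only, 6 had Ptgs2 only and 6 had neither. The Spearman correlation of this pair over 20 co-culture cells was −0.37. In no-MK cells the most frequent combination was Jag1, Igf1 and Ptgs2, in 6 cells, followed by Kitl, Jag1 and Ptgs2, in 5. Kitl and Igf1 met in 2 no-MK cells, with 7 that had Kitl only and 9 that had Igf1 only.

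Ptgs2 was below its group median in the no-MK cells that were highest for Kitl or Spp1, but not in all that expressed them. In the 4 cells above 100 CPM of Kitl, cells 4, 15, 17 and 21, Ptgs2 stood at 90.8, 426, 13.3 and 7.16 CPM, all under the group median of 509.6. In Spp1 cells 13, 17 and 19 it stood at 3.25, 13.3 and 83.8 CPM. Cell 17 belongs to both sets. Over 24 no-MK cells the Spearman correlation of Ptgs2 was −0.34 with Kitl and −0.34 with Spp1. All 20 pairs, 10 in each group, lay between −0.37 and 0.39, a description of cells that share a plate and not a test.

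Genes whose levels over the cells of a group were most like those of a member were named by rank. Likeness is the Spearman correlation of log2(CPM + 1), taken where at least 8 cells expressed the member, among genes that at least 8 cells of the group expressed. In co-culture cells Igf1 was nearest to N4bp1 (0.68), Ccdc59 (0.68) and Nfic (0.67), and Spp1 to the sorting nexin gene Snx3 (0.75), Mrpl28 (0.74) and Wdr43 (0.70). In no-MK cells Kitl was nearest to Ambra1, an autophagy regulator, at 0.80, which was expressed by 8 cells, all of them among the 9 Kitl cells. Next came the translation initiation factor gene Eif3g (0.66) and Sh3pxd2b, which encodes an adaptor of podosomes (0.62). Jag1 was nearest to Atp6ap1, of the proton pump of acid organelles (0.74), Fubp3 (0.65) and the oxygen sensor gene Egln1 (0.58). Igf1 was nearest to Rictor, a subunit of an mTOR complex (0.73), and the anion channel gene Lrrc8a (0.59) was also among its nearest 3. Spp1 was nearest to Anapc10 (0.57), Srp9 (0.54) and Zeb2 (0.52), and Ptgs2 to Tmem208 (0.63), Blcap (0.62) and Nmt1 (0.62). No gene was among the nearest 3 of both Igf1 lists or of both Spp1 lists. The median over 1870 genes in co-culture cells and 2530 genes in no-MK cells lay between −0.07 and 0.10, and the 95th percentile between 0.29 and 0.44.

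Receptors, processing enzymes and partners of these factors were taken from 6 lists, of whose genes 22 were in the table and 21 passed the filter of a read in at least 10 cells. At 2-fold, 10 of the 21 were higher in co-culture cells, against 24.4% of all genes, 4 were lower, against 28.3%, and 7 lay between. Of 32 other niche factors only Ptn, the gene of the growth factor pleiotrophin, was analysed, at 0.128 CPM in co-culture cells and 10.1 CPM in no-MK cells. Of 11 KIT signalling genes, 2 passed the filter and both were higher. Ptpn6, the phosphatase SHP-1 of blood cells, had 653 CPM in co-culture cells and 0.161 CPM in no-MK cells. Lyn, a kinase of blood cells, was 22.1-fold higher in co-culture cells (19.4 to 25.3), at 421 CPM in co-culture cells and 19.0 CPM in no-MK cells.

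Of 29 Notch pathway genes 7 passed it, of which 4 were higher in co-culture cells, 0 were lower and 3 lay within 2-fold. The receptor gene Notch2 was expressed by 19 of 20 co-culture cells and 24 of 24 no-MK cells, with 565 CPM in co-culture cells and 436 CPM in no-MK cells, a ratio of 1.30 (1.25 to 1.34). Adam10, the protease that cuts Notch receptors once they are bound, was 4.31-fold higher in co-culture cells (4.15 to 4.46), at 1230 CPM there and 286 CPM in no-MK cells. The related protease Adam17 was 3.06-fold higher (2.90 to 3.24), at 402 CPM in co-culture cells and 131.2 CPM in no-MK cells. Ncstn, of the gamma-secretase complex, stood at 64.5 CPM in co-culture cells and 116 CPM in no-MK cells.

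Of 18 IGF pathway genes 1 passed it, Igf2r, which encodes a receptor that clears IGF-II, at 104 CPM in co-culture cells and 178 CPM in no-MK cells. Of 17 genes for osteopontin receptors and processing 6 passed it, with 2 higher, 3 lower and 1 within 2-fold. The integrin genes were the lower ones. Itgb1 was 12.9-fold lower in co-culture cells (12.3 to 13.7), at 90.7 CPM there and 1174 CPM in no-MK cells, and Itgav 2.99-fold lower (2.85 to 3.13), at 162 CPM there and 485 CPM in no-MK cells. Itga5 had 1.79 CPM in co-culture cells and 308 CPM in no-MK cells. Cd44, the other osteopontin receptor, was expressed by 18 of 20 co-culture cells and 24 of 24 no-MK cells, with 1137 CPM in co-culture cells and 2158 CPM in no-MK cells, a ratio of 0.527 (0.517 to 0.537).

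Of 21 prostaglandin and leukotriene genes 5 were in the table and 4 passed it, of which 2 were higher in co-culture cells and 2 lay within 2-fold. Ptges3, a synthase that can act after Ptgs2, stood at 1848 CPM in co-culture cells and 1904 CPM in no-MK cells, a ratio of 0.971 (0.954 to 0.988). Hpgds, the haematopoietic prostaglandin D synthase, had 361 CPM in co-culture cells and 0.725 CPM in no-MK cells. Alox5ap, which passes arachidonic acid to the leukotriene pathway, had 749 CPM in co-culture cells and 0.161 CPM in no-MK cells. Ptgr1, a reductase that inactivates leukotrienes and prostaglandins, stood at 89.5 CPM in co-culture cells and 67.8 CPM in no-MK cells, a ratio of 1.32 (1.21 to 1.44).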

How the data were processed

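Single cells were profiled with a Fluidigm C1 chip, SMART-Seq cDNA and Nextera XT libraries, per the labels. The genome build mm10 and Seurat are named in the submitters' processing notes, while no source used here names the aligner or counter. Each deposited signal equals, as worked out from the values, reads × 1e+09 over the library reads of the cell and a whole number fixed for each gene. That number did not follow the gene's length, so levels are compared within a gene only. Kitl and Jag1 have 5911 and 5827 exonic bases. Yet 21.7 CPM of Kitl in co-culture cell 3 was a signal of 481, and 14.0 CPM of Jag1 in co-culture cell 16 one of 25.2. Library reads of a cell were read off its commonest value. A whole number per gene was then sought that makes its values whole reads within 0.0001, and it was found for all 99807 values other than 0. The method was also run on data simulated from the recovered reads with the same formula. Such a run cannot show that the deposited values follow that formula. CPM is recovered reads × 1000000 over library reads. No column of the table was left out.

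The cells of each group were summed, with exact Poisson intervals for reads, binomial ones for ratios and Clopper-Pearson ones for shares, all at 95%. A sum of 0 was set to 3 reads over the group. No test, count model, clustering or doublet caller was used, and each group is 1 sample. The design named read counts for this comparison, and recovered reads took their place. The 5 genes, the lists and the rules were chosen with earlier results of these data known. The rule named the 5 genes, up to 4 genes per list by the number of cells with a read, and the 3 most alike genes per member and group, of which 1 is not reported here. Ambiguous reads of overlapping genes could not be checked. Alternatives were other scalings, limits, depths and cells left out. Python 3.11.15, scipy 1.17.1 and pandas 2.3.3 were used.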

Additional observations from a re-analysis of the deposited data

How the results depend on the processing

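Values are log2 of co-culture over no-MK levels. By reads of the listed genes as total, Jag1 was −4.20, Igf1 0.18, Spp1 −1.26 and Ptgs2 −2.27. By median-ratio scaling, which takes out the median log2 ratio of −0.14 over all genes, they were −3.80, 0.58, −0.85 and −1.87. With cells weighted alike, which the mean of the deposited signal repeats, Jag1 was −4.05, Igf1 0.22 and Spp1 −1.05. Thinned to 250000 reads, Spp1 was −0.93 and Ptgs2 −1.91. Without the highest cell of each group, Kitl was −7.58, Jag1 −4.29, Igf1 −0.12, Spp1 −0.45 and Ptgs2 −2.13. Without the 3 highest, chosen after seeing the data, they were −6.46 (co-culture cells at the floor of 3 reads), −5.93, −1.10, 4.22 and −2.86. By the mean of log2(CPM + 1), they were −2.12, −7.03, −0.59, 3.38 and −4.65. Under these settings Igf1 and Spp1 changed sign, and Kitl, Jag1 and Ptgs2 did not. The cause was not tested. With 1 read as the limit, the shares were 50% for Jag1 and 80.0% for Igf1 in co-culture cells, 75% for Spp1 in no-MK cells, and for at least 3 genes 75% in co-culture cells and 91.7% in no-MK cells. At 100 CPM they were 0% for Kitl in co-culture cells (0 of 20, where a limit of 3 cells allows up to 15.0%), 16.7% for Kitl and 66.7% for Ptgs2 in no-MK cells, and for at least 3 genes 10.0% in co-culture cells and 54.2% in no-MK cells. At 4-fold, 1 of 7 Notch pathway genes was higher in place of 4, against 14.2% of all genes at 4-fold and 24.4% at 2-fold. Thinning, and leaving out the 2 shallow cells (chosen after seeing the data), kept each share within its interval. No paired analysis was possible because the results come from no test and shared cell numbers only name cells.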
